A study of Danio rerio with 114 samples.

Results

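Mature zebrafish eggs were compared between ski7-/- and wild-type females before activation, the stage the study abbreviates as UNA. The comparison rests on 6 of the 114 libraries of the series, chosen by their labels alone as polyA libraries of inactive eggs. There were 3 ski7-/- libraries and 3 wild-type libraries, 1 from each of 6 females of the TLAB strain, a cross of the AB and Tupfel Longfin stocks. The mutant line carries a single CRISPR/Cas9 deletion allele, which shifts the reading frame in the last exon that only the ski7 splice variant of hbs1l uses, so allele and line cannot be told apart. Eggs of good quality were squeezed from anesthetized females and 1 portion was put into TRIzol without activation. The other eggs of the same females gave the activated (ACT) and fertilized (FER) libraries. Stage IV-V oocytes (O4) came from dissected ovaries of females that had been purged to enrich for earlier stages. The methods do not say whether these fish differed from the egg donors, and they were treated here as other females. No age was given for the females in the sources used here.

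In yeast, Ski7 bridges the cytoplasmic RNA exosome, which degrades mRNA from the 3′ end, and the SKI complex, which feeds mRNA into it. Vertebrates make a counterpart by alternative splicing of HBS1L, whose longer product rescues stalled ribosomes together with Pelota. A mature egg is arrested in meiosis, does not transcribe, and holds the mRNAs that were deposited while the oocyte grew in the ovary. A difference between genotypes at this stage can therefore come from earlier synthesis, from decay or, in libraries selected for polyA tails, from tail length. These cannot be told apart in the counts used here. In bulk libraries such as these, fewer cells of a type and less RNA per cell cannot be told apart either.

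The libraries held 10926752, 24608307 and 47207230 reads on genes in wild type and 6592039, 71948059 and 6878616 in ski7-/-. Of 19 egg markers, 13 reached 10 CPM (counts scaled to library size) in all 6 libraries, among them nanog and the Balbiani body organizer buc, while mos had no read and the liver and sperm markers were under 1 CPM throughout. Of the ovarian follicle markers, cyp17a1 and cyp11a1, which encode steroid-producing enzymes, were at 10 CPM or more, cyp11a1 at 67.5, 1036 and 663 CPM in wild type and 217, 211 and 174 CPM in ski7-/-. The follicle markers gsdf and others were near 0, and the summed level of the list ranged from 237.6 to 1193 CPM in wild type and from 355.7 to 395.9 CPM in ski7-/-. The part of such cells in the results was not tested.

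Leukocyte mRNAs set 3 libraries apart. The pan-leukocyte gene ptprc had 0.0962, 23.1 and 9.69 CPM in the wild-type libraries 1, 2 and 3 and 0, 0.0265 and 46.8 CPM in the ski7-/- libraries 1, 2 and 3. The macrophage receptor gene mrc1b had 0, 119 and 112 CPM in wild type and 0, 0.0662 and 127 CPM in ski7-/-. Both genes were thus high in wild-type libraries 2 and 3 and ski7-/- library 3, and under 1 CPM in the activated and fertilized libraries of the same females. The summed level of the blood list ranged from 0.193 to 24.9 CPM in wild type and from 0 to 52.2 CPM in ski7-/-, with no hemoglobin or other defining marker except ptprc at 10 CPM. Below that level, hemoglobin hbaa1 (0, 1.74 and 2.16 against 0, 0.0397 and 5.415 CPM) was highest in the same 3 libraries. So was the keratin gene krt4, at 0, 7.18 and 3.875 CPM against 0, 0.0662 and 7.53 CPM. The keratin gene krt91 was not, at 2.69, 8.07 and 4.58 CPM against 0.867, 2.87 and 0.528 CPM, and lyz had no read. Of the 53 genes that were at most 1 CPM in wild-type library 1 and at least 10 CPM in both other wild-type libraries, 43 (81.1%) were also among the 48 that stood at 10 CPM or more in ski7-/- library 3 alone (89.6% of those). They include csf1ra, spi1, hck, itgb2 and marco. The same uneven levels were seen for actb2, a cytoplasmic actin that many assays use as a reference, at 193, 1690 and 1054 CPM in wild type and 263, 217 and 2249 CPM in ski7-/-.

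**Figure D1:**
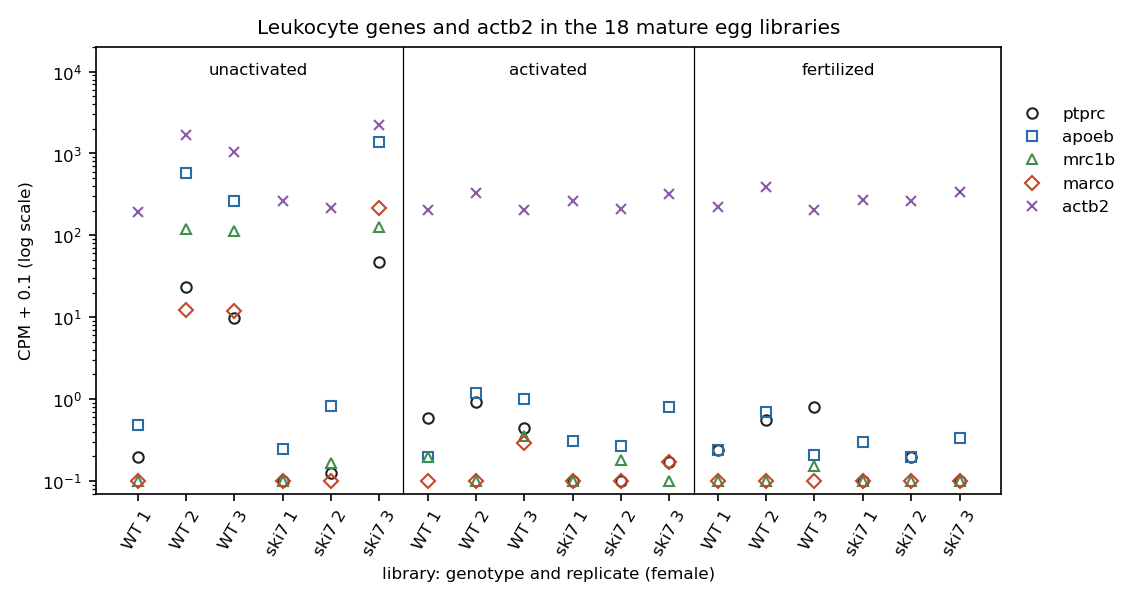
CPM plus 0.1 (log axis) of ptprc, apoeb, mrc1b, marco and actb2 in the 18 mature-egg libraries, in blocks of unactivated, activated and fertilized eggs with the females in the same order. The first 4 genes are high in the unactivated eggs of 3 females (wild type 2 and 3, ski7-/- 3) and at most 1.09 CPM in every activated and fertilized library, and ptprc peaks at 46.8 CPM.

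A total of 7224 genes were abundant enough to test, meaning at least 10 CPM in 3 or more of the 18 mature-egg libraries. With edgeR's quasi-likelihood test across those 18 libraries and Benjamini-Hochberg adjustment, 1330 genes (18.4%) differed between ski7-/- and wild-type unactivated eggs at an adjusted p under 0.05. Of these, 652 (9.03%) were up-regulated and 678 (9.39%) down-regulated in ski7-/-. The median log2 change over all genes tested was 0.05 and moved to 0.28 when libraries were scaled by size alone, where 1203 genes rose and 324 fell. The number of calls depended on single libraries. It was 568 without wild-type library 2, 660 without ski7-/- library 1 and 683 without ski7-/- library 3, and 614 without the 3 females whose unactivated eggs carried leukocyte mRNAs. That last fit leaves a single wild-type female, who is assumed to vary like the others. All 1277 of the called genes that could be fitted there kept their direction, which is no independent evidence. In 1312 of the 1330 called genes the groups of unactivated libraries did not overlap, so a subset could hardly change the direction.

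The fit of 18 libraries treats them as independent although they come from 6 females, and libraries of 1 female were correlated (0.823), so its adjusted p values, which are the ones given for single genes unless stated, may be too small. Each SE given with a log2 change is that change divided by the square root of the F statistic of the same fit. It may be too small as well, and it is not the spread between the 3 females of a group. A fit of the 6 unactivated libraries alone called 323 genes (4.47%), 139 up and 184 down, of which 321 were called in the same direction by both fits. Of the 126 genes named by rule, 58 passed with 18 libraries and not with 6. In all 321 the 3 ski7-/- libraries lay on one side of the 3 wild-type libraries, as they did for 2635 of all genes tested (36.5%). In the 18-library fit, 376 genes (179 up, 197 down) were called the same way whichever of the 6 females was left out. The 10 CPM filter was applied again in each such fit, and a gene that it dropped counts as not called.

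Genes that rose and genes that fell sat at different levels. In wild-type eggs the median level was 14.97 CPM for the genes that rose and 163.7 CPM for those that fell, against 38.3 CPM for all genes tested. Genes that rose took 1.81 to 2.08% of the reads in wild type and 4.02 to 4.42% in ski7-/-. Genes that fell took 27.3 to 29.1% of the reads in wild type and 19.7 to 20.9% in ski7-/-. These levels come from the libraries that made the calls, so genes were also ranked by wild-type O4 oocytes, which the test did not use. The ranking is still not independent of the calls. The filter took the egg libraries of both genotypes, so a gene low in wild type could enter through ski7-/- eggs alone. How easily a gene is called can also vary with its level. The part of either in the shares below was not tested. From the lowest to the highest of 4 equal bins of O4 level, the share of genes called higher went from 11.6% to 9.25%, 9.03% and 6.202%, and the share called lower went from 7.03% to 8.75%, 8.31% and 13.5%. Changes above 4-fold were as many in each direction, with 78 up and 78 down, while 363 genes rose and 223 fell by more than 2-fold.

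**Figure D2:**
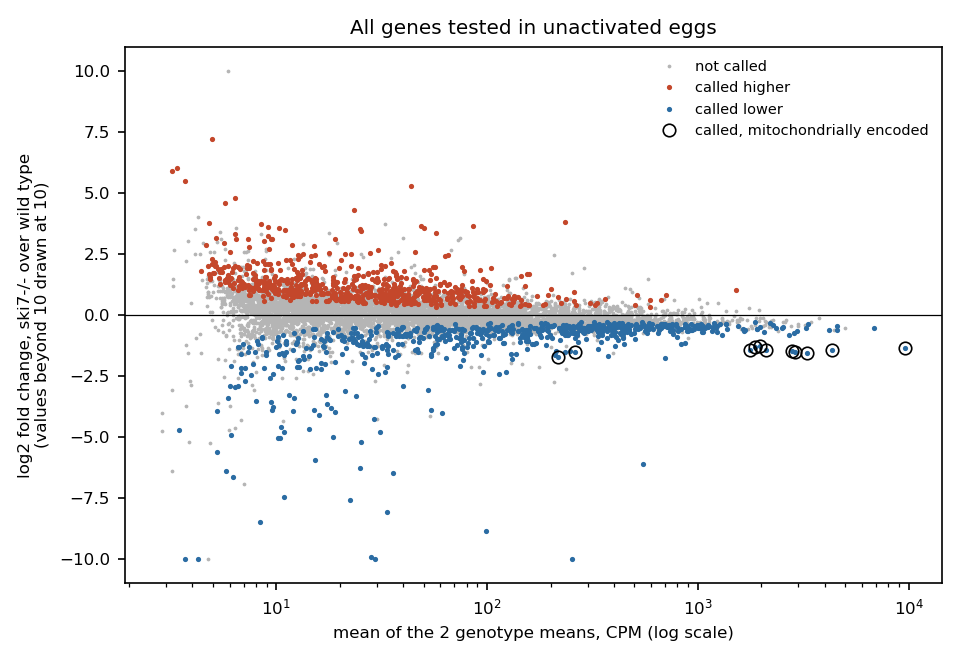
Log2 fold change of ski7-/- over wild-type unactivated eggs against mean level (CPM, log axis) for the 7224 genes tested, with called genes in color and changes beyond 10 on the log2 scale drawn at 10. The 652 genes that rose lie mostly at low levels and the 678 that fell extend to the most abundant mRNAs.

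The deepest losses left almost no reads in ski7-/- eggs. The cytochrome P450 gene cyp2x7 had 64.3, 69.6 and 42.7 CPM in wild type and 0 in each ski7-/- library, lower by at least 7.67 on the log2 scale against a floor of 3 reads per library. Thyroglobulin mRNA (tg), which encodes the thyroid hormone precursor, had 38.1, 58.2 and 72.2 CPM against 0.289, 0.0265 and 0 CPM, lower by at least 7.598 against the same floor. The stress-responsive gene ndrg1 had 199.6, 207.9 and 186.1 CPM in wild type and 0.145, 0.490 and 0.396 CPM in ski7-/-, with a log2 change of -8.86 ± 0.31 (SE, n = 3 per group; adjusted p = 1.54e-10). The groups of each of these genes were far apart. Groups that did not overlap were a condition for entering the 12 largest decreases, and leaving out a female cannot make such groups overlap. Another 3 genes had at least 10 CPM in every wild-type library and at most 1 CPM in every ski7-/- library, and none showed the reverse. These were sardh, which encodes the mitochondrial sarcosine dehydrogenase, frmd8, whose product in mammals stabilizes the iRhom partners of the sheddase ADAM17, and the clone-named gene si:ch1073-190k2.1, at 550.9, 656.1 and 310.0 CPM in wild type and 0, 0 and 0.132 CPM in ski7-/-.

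An abundant mRNA that fell steeply was rif1, whose product controls replication timing and the choice of DNA repair pathway. Its levels were 1026, 899 and 1317 CPM in wild type and 11.9, 21.0 and 12.4 CPM in ski7-/-, a log2 change of -6.12 ± 0.67 (SE; adjusted p = 4.09e-05). Also low in all ski7-/- libraries was ppip5k1b, which encodes an inositol pyrophosphate kinase, at 56.2, 99.7 and 57.1 CPM against 0.434, 1.07 and 0.528 CPM. The inhibitory G protein subunit gene gnaia fell by 5.21 on the log2 scale and lztr1, encoding a cullin adaptor that targets Ras proteins, by 5.62. The remaining genes among the 12 largest decreases were swi5 of the recombination machinery, immp2l of the mitochondrial inner membrane peptidase and npr1a, a natriuretic peptide receptor. Each of those 3 had at most 0.528 CPM in every ski7-/- library. Each was not called without at least 1 of the females, through the test or through the 10 CPM filter.

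Each of the 12 largest increases started from a wild-type mean of 30.8 CPM or less. Transcripts of kyat3, a kynurenine aminotransferase gene, had 0.674, 1.20 and 4.19 CPM in wild type and 81.2, 83.7 and 91.0 CPM in ski7-/-, a log2 change of 5.31 ± 0.76 (SE; adjusted p = 3.60e-04). The adhesion gene nectin4b had 2.98, 2.68 and 1.21 CPM against 34.3, 52.0 and 46.5 CPM. The groups did not overlap for either gene, which was a condition for entering the 12. Among the 12 largest increases, ddit4 reached the highest level. It encodes a stress-induced inhibitor of mTORC1, and had 25.98, 21.3 and 45.1 CPM in wild type and 327, 753 and 229 CPM in ski7-/- (log2 change 3.83 ± 0.55 SE; adjusted p = 3.73e-04). The tubulin deacetylase gene hdac6 rose from 6.54, 12.2 and 4.97 CPM to 69.9, 100 and 106.8 CPM, with a log2 change of 3.56. The annexin gene anxa13l had 3.75, 17.3 and 9.01 CPM against 96.8, 123.3 and 93.5 CPM. Others of the 12 were ccdc82, slx4, the scaffold of structure-specific nucleases, rpp14 of RNase P, prpf3 of the U4/U6 small nuclear ribonucleoprotein, mmgt1 of the endoplasmic reticulum membrane complex, the finTRIM gene ftr19 and akap12a, an anchor for protein kinase A. For akap12a, ftr19 and prpf3 the call was lost without at least 1 of the females, through the test or through the 10 CPM filter.

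**Figure D3:**
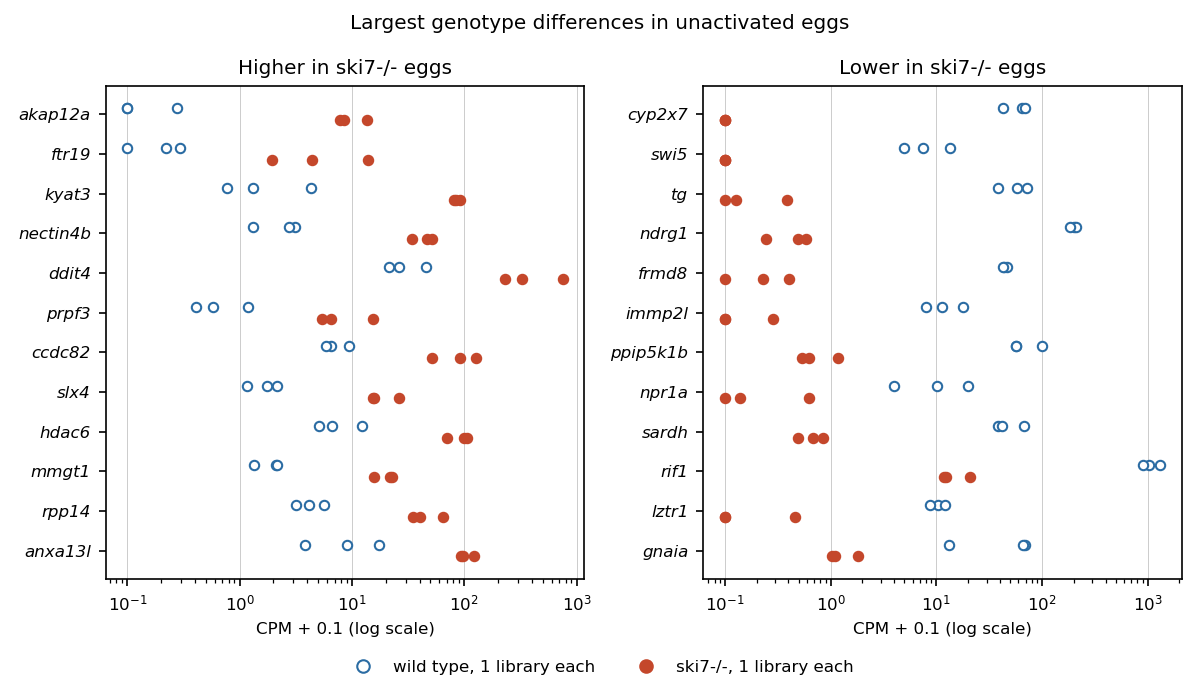
CPM plus 0.1 (log axis) of the 12 genes with the largest increase and the 12 with the largest decrease among named genes called by both fits, with open blue points for the 3 wild-type and filled red points for the 3 ski7-/- libraries. Separate groups were a condition for choosing these 24 genes, and rif1 goes from 899 CPM or more to 21.0 CPM or less.

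mRNAs made from mitochondrial DNA were lower in ski7-/- eggs as a group. The mitochondrial genome encodes 13 proteins, all of them subunits of the respiratory chain or the ATP synthase. All 13 were tested, 11 fell and 0 rose, and the median log2 change was -1.44 against 0.05 over all genes (-1.20 against 0.28 with library size alone). Their share of the reads was 3.56, 4.446 and 4.416% in wild type and 1.598, 1.295 and 2.549% in ski7-/-. No ski7-/- library reached the lowest wild-type library for any of the 13, where 36.5% of all genes tested had groups that did not overlap. The 13 are made from 1 genome and were measured in the same 6 libraries, so they are not 13 independent observations. The mRNA of complex I subunit mt-nd5 had 2509, 3148 and 3538 CPM in wild type and 1009, 980 and 1439 CPM in ski7-/-, a log2 change of -1.41 ± 0.26 (SE; adjusted p = 2.52e-03). The mRNA of ATP synthase subunit mt-atp6 had 4350, 7116 and 7564 CPM against 1938, 2093 and 2911 CPM. Cytochrome b mRNA (mt-cyb) had 4382, 5554 and 4781 CPM against 1436, 1018 and 2503 CPM. In these 3 genes ski7-/- library 3 was the highest of its group.

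The 2 that did not pass were mt-atp8 (log2 change -2.12, adjusted p = 0.071) and mt-nd6 (-1.21, adjusted p = 0.062), the latter the only one of the 13 encoded on the light strand. Wild-type means were between 2.33 and 4.37 times the ski7-/- means. The count of calls rested on single females, since it was 3 without ski7-/- library 1 and 5 without wild-type library 2, and it was 1 without the 3 females that carried leukocyte mRNAs. The median stayed between -1.64 and -1.29 when each female was left out in turn and was -1.41 without those 3 females. All 13 were below 0 there, which adds no support, since their groups did not overlap to begin with. The median was -1.48 in activated and -1.37 in fertilized eggs, whose libraries come from the same females and are no independent evidence.

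**Figure D4:**
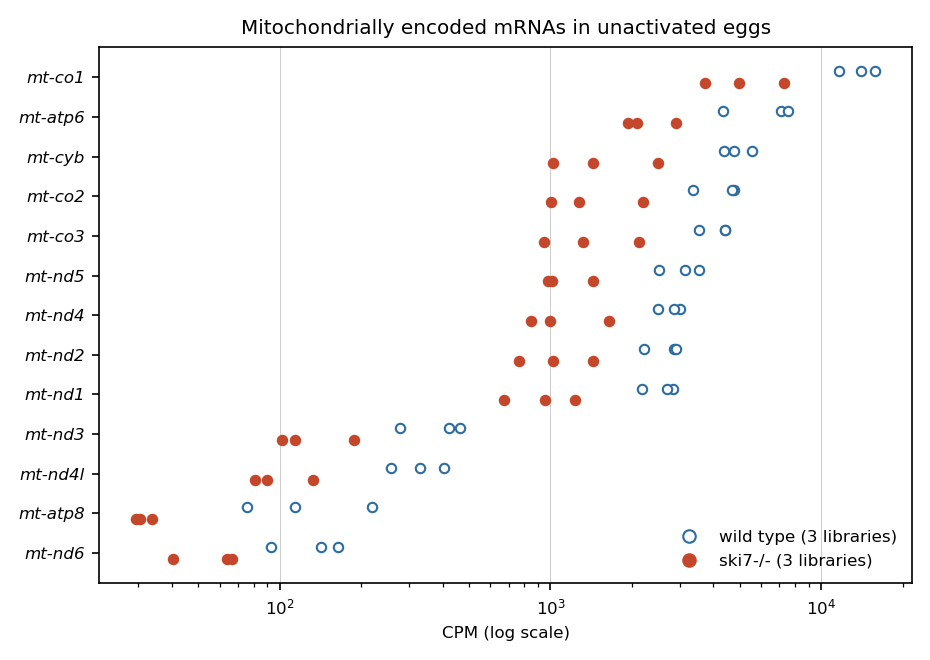
CPM (log axis) of the 13 mRNAs encoded by mitochondrial DNA in unactivated eggs, with open blue points for the 3 wild-type and filled red points for the 3 ski7-/- libraries. Every ski7-/- point is below every wild-type point of its gene, by 2.33 to 4.37 times on the means.

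The gene lists described from here on are counted in the 18-library fit, and their shares read against the 18.4% called over all genes. Most counts were smaller in the 6-library fit and without single females. The 6-library count is given for each list with calls, and counts without single females for most of them.

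Of 44 tested nuclear genes for respiratory complexes and ATP synthase, 0 rose and 0 fell, with a median log2 change of 0.03. At an unadjusted p under 0.05 in edgeR 3 of them fell, DESeq2 called 1, and 8 fell without wild-type library 1. Without both wild-type library 1 and ski7-/- library 3 the median was -0.46 and 5 fell, and in limma-voom, which allows for the correlation within a female, it was -0.30 and 6 fell. Mitochondrial ribosomal protein genes had 2 up (mrpl22, mrpl2) and 2 down (mrps25, mrps30) of 26 tested (15.4%), and 1 gene was called with 6 libraries or without ski7-/- library 1 and 2 without wild-type library 2. The gene mrps25 had 77.1, 103.6 and 63.6 CPM in wild type and 22.4, 28.6 and 29.7 CPM in ski7-/-, a log2 change of -1.58 ± 0.21 (SE; adjusted p = 1.91e-04). Both main chaperones of the mitochondrial matrix fell. Their genes are hspd1 (Hsp60), at 226, 201 and 156 CPM against 61.6, 62.0 and 68.8 CPM (adjusted p = 2.29e-05), and hspa9 (mitochondrial Hsp70), at 22.9, 22.1 and 23.3 CPM against 11.9, 6.17 and 14.7 CPM (adjusted p = 0.028 with 18 libraries and 0.12 with 6). The groups of both did not overlap, and hspa9 lost its call when single females were left out. In the tricarboxylic acid cycle and glycolysis, 1 of 34 tested genes rose (dlst) and 2 fell (idh3a and fh, of isocitrate dehydrogenase and fumarase), 8.82% in all. There 1 gene was called with 6 libraries or without ski7-/- library 1 or wild-type library 2, 5 fell without wild-type library 1, and 8 fell with a median of -0.57, in place of 0.26, without both wild-type library 1 and ski7-/- library 3. In limma-voom with females correlated 3 rose and 10 fell. Fatty acid oxidation and peroxisome genes had 3 up, among them the peroxisomal import gene pex14, and 2 down, decr1 and abcd2, of 27 (18.5%), with 0 called by the 6-library fit and 1 or 2 without wild-type library 2 or any one of the ski7-/- libraries.

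Cytoplasmic ribosomal protein mRNAs were shifted down, but few passed the test. Of 68 tested, 66 had a log2 change below 0 with a median of -0.61 (-0.37 with library size alone), and 5 fell (rps12, rps13, rps16, rpl11 and rpl18) while 0 rose. That is 7.35% called, below the 18.4% of all genes, and 1 fell with 6 libraries. Of the 5, rps12 is also among the neighbours of hbs1l described below. Their share of the reads was 0.731, 1.29 and 1.12% in wild type and 0.758, 0.697 and 1.01% in ski7-/-, so the groups overlapped. In each genotype the libraries with the highest shares were those that carried leukocyte mRNAs. The same females were highest in activated eggs, at 0.788, 0.943 and 1.047% in wild type and 0.725, 0.597 and 0.807% in ski7-/-. They were also highest in fertilized eggs, at 0.634, 1.12 and 1.165% against 0.777, 0.628 and 0.782%. Without wild-type library 1, 41 fell, and without the 3 females that carried leukocyte mRNAs 0 fell (3 had an unadjusted p under 0.05 in edgeR) and the median was -0.14. The part of leukocyte mRNA was not tested beyond these fits. In activated and fertilized eggs of the same females, where ptprc was under 1 CPM, the medians were -0.63 and -0.67.

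In other parts of the translation machinery, single genes were called in both directions, at shares of 15.4 to 22.2% near the 18.4% of all genes. Of 39 translation factors, 5 rose (eif3j, eif6, eif3ea, eif3cl and eif5) and eef1da fell (15.4%). With 6 libraries eif3j alone was called, without wild-type library 1 9 rose and 3 fell, and without ski7-/- library 3 3 rose. The initiation factor gene eif3j had 27.3, 24.1 and 35.2 CPM in wild type and 65.5, 68.5 and 99.9 CPM in ski7-/-, a log2 change of 1.44. Of 18 aminoacyl-tRNA synthetase genes, the mitochondrial leucyl enzyme lars2 rose and cars2, lars1a and lars1 fell (22.2%), and 1 gene was called with 6 libraries or without ski7-/- library 1 or 3 or wild-type library 2, and 2 without ski7-/- library 2. Among 24 genes for entry into the endoplasmic reticulum, the translocon genes sec61b and sec63 rose, and 3 genes of the signal recognition particle and its receptor (srp9, srpra and srprb) fell (20.8%), and 1 rose and 2 fell with 6 libraries or without ski7-/- library 3. The gene sec61b had 18.19, 18.77 and 18.02 CPM against 42.4, 55.0 and 69.9 CPM (log2 change 1.62, adjusted p = 1.16e-04), and srp9 had 36.6, 48.1 and 40.0 CPM against 12.6, 16.5 and 21.0 CPM (log2 change -1.30).

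Of 45 tested chaperone genes, 8 rose and 2, the matrix chaperones hspd1 and hspa9, fell (22.2%), with a median log2 change of 0.26 against 0.05 over all genes. With 6 libraries 4 rose and 1 fell, and 2 rose without ski7-/- library 3 or wild-type library 2 and 3 without ski7-/- library 1. The constitutive cytosolic Hsp70 gene hspa8 had 2.21, 4.01 and 30.9 CPM in wild type and 139, 172 and 165 CPM in ski7-/-, a log2 change of 3.66 ± 0.92 (SE; adjusted p = 0.015 with 18 libraries and 0.076 with 6). Among the wild-type libraries, number 3 was the highest. The chaperonin genes tcp1 and cct5 rose by log2 changes of 1.26 and 0.69, and dnajb11, an Hsp40 of the endoplasmic reticulum, by 1.51. Also up were dnajc11, dnajb2, dnajc15 and dnajc14, of which the products of dnajc11 and dnajc15 are mitochondrial membrane proteins. Proteasome genes had 2 up (psmc4 and psmd1) and 0 down of 27 (7.41%, and 0 called with 6 libraries or without ski7-/- library 3 or wild-type library 2 or 3), and autophagy genes 0 up and 0 down of 18, with 5 at an unadjusted p under 0.05 and 2 called by DESeq2.

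Of 29 tested redox enzyme genes, gpx4, gpx8 and prdx1 rose and cat, txn2, txnl4a and gsto2 fell (24.1%), with a median log2 change of -0.28. With 6 libraries cat alone was called. Without ski7-/- library 3 0 rose and 1 fell, without wild-type library 2 1 rose and 1 fell, and without ski7-/- library 1 1 rose and 2 fell. Catalase mRNA (cat), whose enzyme breaks down hydrogen peroxide, had 978, 1262 and 1362 CPM in wild type and 599, 565 and 466 CPM in ski7-/- (log2 change -1.14 ± 0.17 SE; adjusted p = 5.58e-04). Mitochondrial thioredoxin mRNA (txn2) had 36.0, 30.6 and 35.5 CPM against 26.3, 21.2 and 17.7 CPM. Glutathione peroxidase gpx4, which reduces lipid peroxides, had 6.74, 19.8 and 11.4 CPM against 25.7, 31.5 and 58.8 CPM, and the lowest ski7-/- library lay just above the highest wild-type library. The list also holds txnl4a, which encodes a splicing factor with a thioredoxin fold.

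In a list of 14 tested exosome, cofactor and SKI genes, 4 rose and 0 fell (28.6% called against 18.4% of all genes). There 1 rose with 6 libraries or without ski7-/- library 1 or 3 or wild-type library 2, and 2 rose without ski7-/- library 2 or wild-type library 3. The 4 were c1d and mphosph6, nuclear exosome cofactors, skic3, the scaffold of the SKI complex, and dis3l2, an exonuclease of uridylated RNA that works without the exosome. The cofactor gene c1d had 8.85, 14.2 and 7.51 CPM in wild type and 35.8, 45.2 and 35.1 CPM in ski7-/- (log2 change 1.94, adjusted p = 5.01e-04), and skic3 had 2.21, 4.55 and 3.97 CPM against 6.36, 5.88 and 13.2 CPM. The SKI helicase gene skic2 lay in the other direction without passing, with 8.18, 13.6 and 6.71 CPM against 2.75, 3.59 and 4.36 CPM (log2 change -1.40, adjusted p = 0.0502). The genes dis3 and exosc10, of exosome nucleases that the paper places in the nucleus and the nucleolus, had log2 changes of -0.08 ± 0.32 and -0.37 ± 0.40 (SE), with adjusted p values of 0.89 and 0.53. The gene of DIS3L, which the paper gives as the nuclease of the cytosol, is not described here.

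Of 50 tested deadenylation, decapping and surveillance genes, 3 rose and 8 fell (22.0%). With 6 libraries 1 rose and 2 fell, without ski7-/- library 3 1 and 3, without wild-type library 2 1 and 5, and without ski7-/- library 2 2 and 5. The nonsense-mediated decay helicase gene upf1 rose from 57.6, 70.9 and 58.8 CPM to 114, 123.3 and 119 CPM (log2 change 0.94 ± 0.15 SE; adjusted p = 8.10e-04), and the decapping enhancer edc3 and cnot3b rose by 0.90 and 0.53 on the log2 scale. The gene for the scaffold of the CCR4-NOT deadenylase, cnot1, had 40.6, 20.4 and 23.2 CPM in wild type and 4.19, 0.781 and 1.19 CPM in ski7-/-, a log2 change of -3.87 ± 0.57 (SE; adjusted p = 4.56e-04). The other 7 that fell recruit that deadenylase or act with small RNAs. They were tob1b, cth1 and zfp36l2, which recruit CCR4-NOT, and ago2, ago3, ago4 and tnrc6bb.1 of the microRNA machinery, with log2 changes from -1.05 for tob1b to -0.42 for ago2. The 5′ exonuclease gene xrn1 and the decapping enzyme gene dcp2 did not pass, at log2 changes of -0.31 and -0.86 (adjusted p = 0.13 and 0.081).

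Among 37 tested genes that store maternal mRNA or lengthen its tail, 4 rose and 4 fell (21.6%). The calls were 1 with 6 libraries, 2 without wild-type library 2 or ski7-/- library 2, 3 without ski7-/- library 3 and 4 without ski7-/- library 1. Among those that rose were the poly(A) polymerase genes tent5c and tent4b and the RNA-binding protein gene igf2bp3. The oocyte gene zar1l fell from 16.3, 17.3 and 18.4 CPM to 5.93, 3.43 and 2.38 CPM, a log2 change of -2.15 ± 0.30 (SE; adjusted p = 2.50e-04). Also down were pabpc1l, an embryonic poly(A)-binding protein gene, dazl and khdrbs1a, the last from 3264, 4079 and 4120 CPM to 2718, 2822 and 2459 CPM. Of 26 germ plasm and piRNA genes, piwil2 and tdrd6b rose, nanos3, dazl, pld6 and hook2 fell (23.1%), and the median was 0.01. There 0 were called with 6 libraries, 1 without wild-type library 2 and 2 without ski7-/- library 1 or 3. The germ cell gene nanos3 had 35.9, 35.4 and 38.7 CPM against 15.9, 21.7 and 17.4 CPM.

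Cell cycle genes had 5 up and 10 down of 58 tested (25.9%), with a median of -0.17 that turned to 0.06 when libraries were scaled by size alone. With 6 libraries 2 rose and 3 fell, without wild-type library 2 2 and 5, and without any one of the ski7-/- libraries 9 were called. The maternal cyclin mRNAs ccna1 and ccnb2 were among those that fell. Cyclin A1 mRNA had 2910, 3630 and 3831 CPM in wild type and 2259, 1860 and 1770 CPM in ski7-/- (log2 change -0.81), and ccnb2 had 3258, 3753 and 3801 CPM against 2319, 2543 and 2024 CPM (log2 change -0.64). The groups of both were separate, by less than 2-fold on their means. Lower too were fbxo43, which keeps the egg in meiotic arrest, cdca8 of the chromosomal passenger complex, and chek2, a checkpoint kinase gene at 138, 124 and 21.6 CPM against 10.3, 10.0 and 13.2 CPM. The replication origin genes orc3 and mcm6 rose, orc3 from 4.43, 4.28 and 3.46 CPM to 29.5, 29.5 and 9.25 CPM. In the list of 9 tested genes of the anaphase-promoting complex, the coactivator gene cdc20 fell by 0.48 on the log2 scale and anapc15 by 0.73. That is 22.2% called, with 0 called with 6 libraries.

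Among genes for the egg surface and its response to sperm, calls went in both directions, but with 6 libraries 0 or 1 remained in each list. The share called in the egg activation list was below the 18.4% of all genes. Of 13 egg coat genes, zp3, zp3c and zp3b rose and zp3.2 fell (30.8%), with 1 called with 6 libraries and 2 without ski7-/- library 1 or 3 or wild-type library 2. The zona pellucida gene zp3 had 4.52, 3.97 and 12.2 CPM against 34.1, 32.6 and 33.7 CPM (log2 change 2.27, adjusted p = 3.47e-03). Of 49 egg activation and exocytosis genes, rab33b and snap29 rose and rab11b, syt1, rab11fip1a and snap23.1 fell (12.2%), with a median of 0.00. There 0 were called with 6 libraries or without wild-type library 2, 1 without ski7-/- library 3 and 2 without ski7-/- library 1 or 2. The recycling endosome gene rab11b had 300.8, 307 and 435 CPM against 81.8, 192 and 93.9 CPM. Of 13 pluripotency and dorsal-ventral factors, the BMP signal transducer smad5 alone passed (7.69%), falling by 0.52 on the log2 scale, and 0 were called with 6 libraries.

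Transporters were the most numerous list, with 13 up and 11 down of 126 solute carriers (19.05% called against 18.4% of all genes). With 6 libraries 2 rose and 4 fell, without ski7-/- library 1 5 and 6, without wild-type library 2 6 and 6, and without ski7-/- library 3 8 and 7. The zinc transporter gene slc39a10 fell from 245, 206 and 167 CPM to 43.7, 44.0 and 33.6 CPM (log2 change -2.34, adjusted p = 2.12e-06), and the copper transporter gene slc31a1 from 136, 99.3 and 108 CPM to 9.97, 0.437 and 12.02 CPM. Mitochondrial folate carrier mRNA (slc25a32) rose from 20.02, 13.8 and 20.7 CPM to 59.0, 55.3 and 74.2 CPM. Lysosomal and yolk-processing genes had ctss2.1 up and ctsla and ctsa down of 21 (14.3%), with 0 up and 1 down with 6 libraries. Cathepsin L mRNA (ctsla), which encodes a protease of yolk breakdown in fish oocytes, had 3205, 3495 and 3958 CPM against 2177, 2334 and 1890 CPM. Of 9 sterol synthesis genes dhcr7 rose (11.1%), and of 15 tubulins and actins tuba1b and tubg1 fell (13.3%). With 6 libraries 0 were called in either list. Of 49 genes in the testis list only 5 were tested. Of these, odf3l2a and sycp2 rose and dnah1 and spata7 fell (80% called against 18.4% of all genes). With 6 libraries 1 rose and 1 fell. The defining sperm markers were under 1 CPM.

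**Figure D5:**
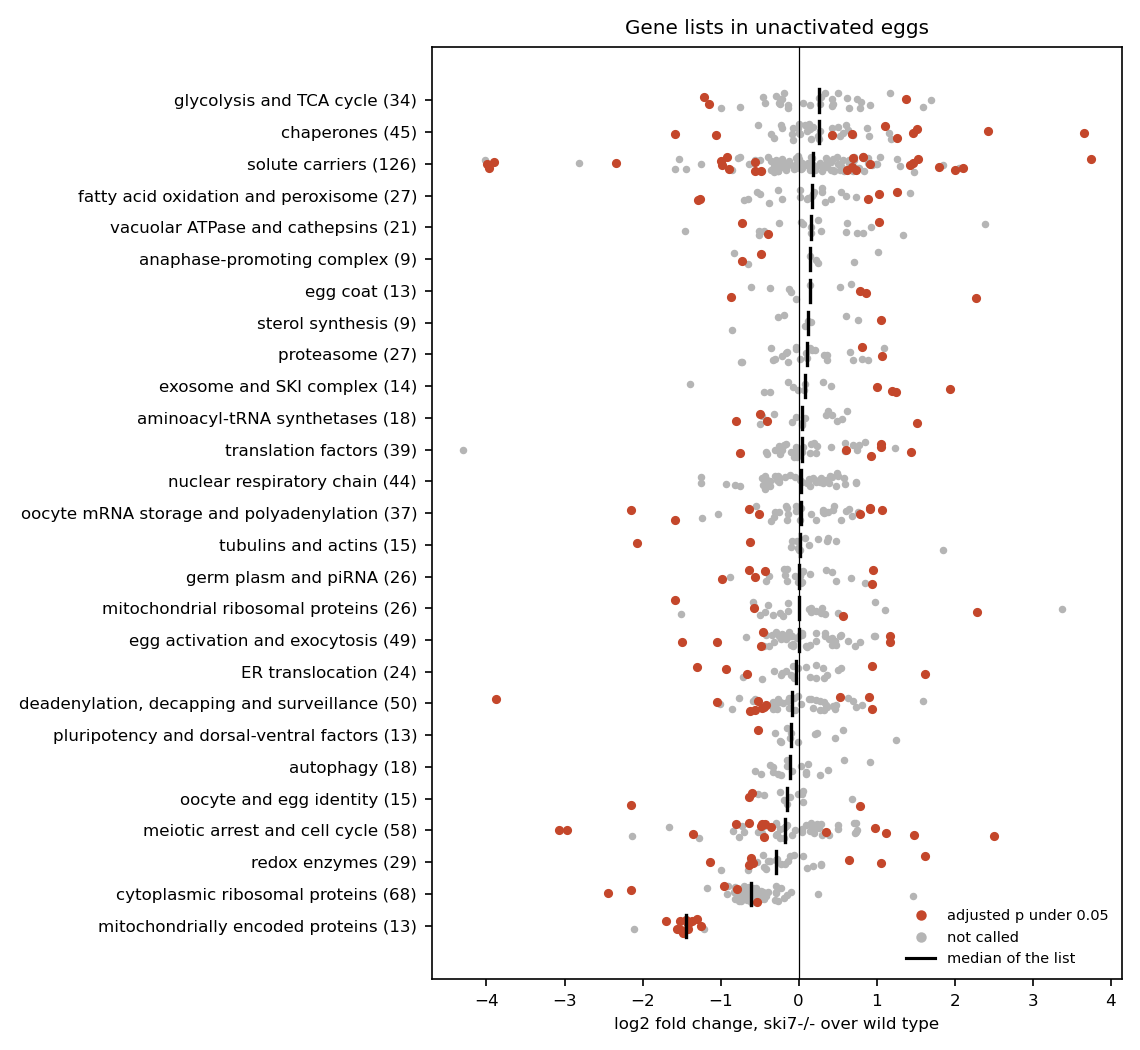
Log2 fold change of ski7-/- over wild-type unactivated eggs for each tested gene (points) of the gene lists with at least 9 tested members, with called genes in red and the list median as a black bar. The mitochondrially encoded mRNAs have a median of -1.44 and the ribosomal proteins of -0.61, while the other medians lie between -0.28 and 0.26.

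The targeted locus did not pass the test in total. Reads on hbs1l cover both splice variants and do not separate ski7 from hbs1l, so they do not check the deletion. The sum was 11.45, 7.76 and 3.83 CPM in wild type and 10.4, 7.59 and 12.4 CPM in ski7-/-. The groups overlapped, with a log2 change of 0.42 ± 0.51 (SE; adjusted p = 0.59), and without the 3 females that carried leukocyte mRNAs it was -0.35 (adjusted p = 0.54). A homozygous line also carries the chromosome segment around its allele, so the 100 protein-coding genes nearest to hbs1l in the gene order of the assembly GRCz12tu, 50 on each side, were examined. Of these 40 were tested, 7 rose and 3 fell (25% called against 18.4% of all genes), with a median of 0.00. The kinase gene sgk1 had 7.99, 8.87 and 7.87 CPM in wild type and 53.6, 44.0 and 58.9 CPM in ski7-/- (log2 change 2.67 ± 0.24 SE; adjusted p = 6.20e-06). It was also higher in O4 oocytes, at 49.5, 38.9 and 43.6 CPM against 17.4, 5.96 and 9.61 CPM (edgeR, adjusted p = 0.010). The orphan nuclear receptor gene nr4a1 had 0.385, 5.62 and 5.57 CPM against 49.0, 46.8 and 42.0 CPM. The others up were dnajc11, tamalin, lca5, itga5 and si:ch211-148l7.4, and those down were rps12, asxl1 and dgka.

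Few genotype differences were called as changing with activation. In limma-voom, with libraries of 1 female allowed to vary together, the ski7-/- effect in unactivated and activated eggs of the same females differed for 5 of 7224 genes (0.0692%), and edgeR without that block or with the female as a fixed block called 0, with 5 and 70 genes at an unadjusted p under 0.05 against 332 in limma. The count fell to 0 without wild-type library 3 or ski7-/- library 2, 1 without ski7-/- library 3, and 3 without ski7-/- library 1 or wild-type library 2. The clearest of the 5 in its values was cyb5r1, a cytochrome b5 reductase gene. In unactivated eggs it had 6.35, 6.33 and 11.0 CPM in wild type and 11.6, 6.34 and 11.0 CPM in ski7-/-, so the groups overlapped. In activated eggs it had 1.34, 3.26 and 2.78 CPM in wild type and 12.2, 8.73 and 14.9 CPM in ski7-/-, so the groups were separate. The other 4 were atp6v1g1, fer, gck and eeig1. At least 1 ski7-/- library stood apart from its group in atp6v1g1, fer and gck.

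The genotype effect in unactivated eggs was also set against that in O4 oocytes, the last stage before maturation, which were treated as coming from other females. An edgeR interaction test called 340 of 9331 genes (3.64%), 184 with a higher and 156 with a lower effect in eggs. Of the 340, 256 passed in eggs and not in oocytes, 41 in oocytes and not in eggs, 13 in both in opposite directions and 1 in both in the same direction. Choosing genes whose effect differed favors opposite directions and leaves out shared ones, so the 13 and the 1 do not show how often each occurred. Genes with similar effects, such as slc39a10 at -1.64 in oocytes and -2.35 in eggs, fall outside the 340. The count ranged from 119 without ski7-/- O4 library 1 to 519 without wild-type unactivated library 1. It was below 340 by more than 1.5 times without each of the 6 O4 libraries (119 to 182) and without wild-type unactivated library 2 (215).

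Mitochondrially encoded mRNAs were among the genes whose effect differed between the stages. Their median log2 change was 0.02 in O4 oocytes, where 0 of 13 passed in edgeR (0 also at an unadjusted p under 0.05). The difference between stages was called for 6 of the 13 (mt-nd1, mt-atp8, mt-atp6, mt-nd4l, mt-nd4 and mt-nd5), where 3.64% of all genes in that fit were called. The count of 6 without single O4 libraries is not given here. Counts of mt-nd5 in O4 oocytes were 652, 821 and 784 CPM in wild type and 748, 567 and 910 CPM in ski7-/-, so the groups overlapped. The matrix chaperone gene hspd1 likewise had 414, 379 and 419 CPM against 412, 381 and 379 CPM in O4 oocytes, and its effect differed between the stages by -1.57 on the log2 scale (adjusted p = 2.01e-03). Ribosomal protein genes had a median of 0.04 in oocytes and a median difference of -0.67 between the stages, with 0 of 69 called against 3.64% of all genes. The gene cnot1 had 52.3, 46.0 and 61.2 CPM in wild-type and 57.7, 49.0 and 43.5 CPM in ski7-/- oocytes, and its difference between the stages was -3.84 (adjusted p = 0.019).

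The genes that passed in both stages in opposite directions included polq and slx4. The DNA polymerase theta gene polq had 6.34, 13.7 and 13.3 CPM in wild-type oocytes and 0.352, 0.0763 and 0.0884 CPM in ski7-/- oocytes, against 3.79, 3.49 and 3.68 CPM and 14.3, 10.4 and 24.3 CPM in eggs, on a scale common to both stages. The nuclease scaffold gene slx4 had 12.7, 14.3 and 11.0 CPM in wild-type and 1.32, 0.458 and 0 CPM in ski7-/- oocytes, against 1.44, 2.11 and 2.68 CPM and 20.5, 20.9 and 32.0 CPM in eggs. Both were thus lower in mutant oocytes and higher in mutant eggs. The same order held for nbn, ino80b, hmgn1a, med7 and csmd3, whereas gatad2a, wdcp, akr7l, zdhhc15, zgc:113425 and si:ch1073-190k2.1 went from higher to lower. These calls come from the fit with 12 libraries, and med7 and csmd3 were not called in eggs by the 18-library fit. In eggs med7 was near the floor, at 0.785, 0.971 and 0.479 CPM in wild type and 2.33, 1.38 and 2.12 CPM in ski7-/-. The gene rif1 was lower in both stages, with 37.5, 103 and 39.0 CPM in wild-type and 4.84, 4.43 and 2.48 CPM in ski7-/- oocytes (log2 change -3.93, adjusted p = 1.09e-03), and its difference between the stages did not pass (adjusted p = 0.064).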

How the data were processed

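PolyA+ RNA was sequenced with a strand-specific kit. Per the study's methods, the authors trimmed adapters, aligned reads with HISAT2 2.1.0 to GRCz11 with Ensembl gene models, and deposited HTSeq 0.9.1 counts of uniquely mapped reads per gene, 1 table per library. Those raw counts were used here. Near-identical gene copies are uncertain under unique counting. Symbols were taken from the pairing of identifiers and names provided with the data (28965 of 31466 identifiers, 92.1%). Among the genes described, kyat3, ndrg1, hspa8, eif3j, dnajc11, prdx1, mcm6, dgka, slc25a32, hook2, cyp11a1 and eeig1 are symbols of 2 identifiers each, and the identifier with the values given is the tested one. The other tables of the series, including transcript-level estimates and libraries of the remaining stages and preparations, were not used here.

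Genes with at least 10 CPM in 3 libraries were tested in R 4.3.3 with edgeR 4.0.16 (TMM scaling, quasi-likelihood fit of the 18 mature-egg libraries, Benjamini-Hochberg adjustment, threshold 0.05), as close as possible to the study's design. Levels are TMM-scaled CPM. Fold changes are log2 of ski7-/- over wild type. Activated eggs were compared in limma 3.58.1 (voom, with a correlation among libraries of 1 female), and O4 oocytes in an edgeR interaction fit with 12 libraries. The code was tested on simulated data. Libraries of 1 female were correlated (0.823). Replicate numbers do not pair females across genotypes. The same-numbered deviations correlated at 0.383, -0.259 and 0.201. Named genes were the 12 largest changes in each direction called by both fits with groups that did not overlap, the 2 largest called members of each of 30 gene lists in each direction, hbs1l, its called neighbours and genes the study names. Other called list members are named to complete counts. The members and lists were chosen with earlier results of these data known. Alternatives were another scaling, filter, test or fit, and leaving out females. Counting error limits genes with few reads, since 6592039 reads in the smallest library make 1 CPM about 7 reads.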

Additional observations from a re-analysis of the deposited data

Results flagged for a closer look

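The genotype effect differed between unactivated and activated eggs for 5 genes and between unactivated eggs and O4 oocytes for 340 genes, each by a test of the difference itself. The 5 differences from activated eggs, as limma-voom estimates of the log2 change in unactivated minus that in activated eggs, were -4.64 for atp6v1g1, -2.60 for cyb5r1, -2.10 for fer, -1.97 for gck and -1.66 for eeig1. The edgeR changes in unactivated and activated eggs were close for atp6v1g1 (-1.46 and -1.59), fer (-1.64 and -1.52) and gck (-0.76 and -0.40). They were further apart for cyb5r1 (0.28 and 2.285) and eeig1 (-0.96 and 0.52). For atp6v1g1, ski7-/- library 2 had 0 CPM in both stages. Genes described here that differed from O4 oocytes follow, given as the log2 change in unactivated eggs minus that in oocytes.

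Among the largest increases the difference was 7.94 for slx4, 4.46 for mmgt1, 4.41 for anxa13l, 3.65 for ccdc82, 3.46 for hdac6 and 3.23 for rpp14. Among the largest decreases it was -9.66 for tg, -8.22 for ndrg1, -7.49 for frmd8, -6.36 for ppip5k1b and -4.11 for sardh. For tg and ndrg1 the O4 libraries of 1 genotype were uneven, since ndrg1 had 33.3, 0.458 and 36.1 CPM and tg had 30.5, 1.15 and 23.3 CPM in ski7-/- oocytes. The value of -21.67 for cyp2x7 depends on the prior count, because ski7-/- eggs had no read and wild-type oocytes had 0, 0.127 and 0 CPM, and ski7-/- oocytes had 32.9, 14.6 and 0.265 CPM.

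Of the mitochondrially encoded mRNAs, mt-atp8 differed by -2.87, mt-nd4l by -1.72, mt-atp6 by -1.50, mt-nd1 by -1.47, mt-nd5 by -1.42 and mt-nd4 by -1.31. Nuclear genes for mitochondrial proteins had -1.75 for hspa9, -1.72 for mrps25, -1.57 for hspd1 and 2.56 for mrpl22. In translation and protein entry into the endoplasmic reticulum, eif3j differed by 1.34, sec61b by 1.42, srp9 by -1.37 and srpra by -1.02. The decay genes cnot1, tob1b, upf1 and c1d differed by -3.84, -1.28, 0.87 and 1.80. Catalase (cat) differed by -1.27, cathepsin ctsla by -0.99, zp3c by 1.40, orc3 by 2.63, cdca8 by -2.93 and odf3l2a by 1.97.

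Among other called list members, dnajb11 differed by 1.56, dnajc15 by 1.25, tcp1 by 1.20, slc25a32 by 1.52, slc39a6 by 1.46, slc38a10 by 1.32, ccna1 by -1.14, ccnb2 by -0.83, cth1 by -1.16 and khdrbs1a by -0.73. Of the genes with opposite effects in the stages, the difference was -2.08 for gatad2a, 4.38 for med7, -3.97 for wdcp, -3.15 for akr7l, -2.47 for zgc:113425, 3.20 for nbn, 8.13 for polq, 2.17 for ino80b, -2.14 for zdhhc15, 4.75 for csmd3, and 4.10 for hmgn1a. The value of -16.33 for si:ch1073-190k2.1 depends on the prior count. It was 8.63 for smim19 and 8.25 for eif2ak3.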

How the results depend on the processing

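Against 1330 calls in unactivated eggs, there were 323 with the 6 libraries alone, 2354 in limma-voom with libraries of 1 female correlated, 797 with no filter on low counts, 614 without the 3 females that carried leukocyte mRNAs and 568 to 1585 when each female was left out. With the replicate number as a block, which pairs no females, 2106 were called. The difference from activated eggs went from 5 genes to 0 with independent libraries in edgeR, with the female as a fixed block or with a filter at 1 CPM, and to 0 to 4 when each female was left out. The difference from O4 oocytes went from 340 genes to 896 with DESeq2, 226 with a replicate block and 119 to 519 when each library was left out. The causes were not tested. The hbs1l change of 0.42 turned to -0.35 without the 3 females, and lay between 0.09 and 0.81 when each female was left out. The uncalled actb2 change of -0.09 turned to 0.19 with library size alone and 0.32 without the 3 females, and ranged from -1.999 to 0.56 when each female was left out. That of dis3 (-0.08) turned to 0.16 and 0.43 and ranged from -0.26 to 0.35. Over 126 named genes and up to 19 alternatives each, 1853 of 2343 values kept direction and side of the threshold, 465 were no longer past it, 17 newly passed and the 8 of actb2 and dis3 changed sign. The alternatives without the 3 females and without both libraries apart in principal components (wild-type 1 and ski7-/- 3, 1127 calls) were chosen after seeing the data.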

Other observations

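The piRNA pathway gene gtsf1 was nearly absent in all 3 libraries of 1 wild-type female, at 0.0962, 0.479 and 1.11 CPM in unactivated, activated and fertilized eggs. It was between 358.5 and 711.3 CPM in each of the other 15 mature-egg libraries. Its log2 change in unactivated eggs was 1.07 and did not pass (edgeR, adjusted p = 0.66). In O4 oocytes gtsf1 was uneven in wild type too, at 144.8, 0.127 and 0.679 CPM against 261.8, 281.1 and 238.6 CPM in ski7-/-. The gene lies 15 genes from hbs1l, within the neighbourhood examined above.

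Genes missing or present in the unactivated eggs of single females were also counted, with gtsf1 among them. At most 1 CPM in 1 library with at least 10 CPM in both others of its genotype was seen for 53 genes in wild-type library 1, 1 in library 2 and 16 in library 3, and for 10, 10 and 2 genes in ski7-/- libraries 1, 2 and 3. The reverse pattern was seen for 2, 5 and 7 genes in wild type and 2, 5 and 48 in ski7-/-. The 53 and the 48 share 43 genes, the set described above with the leukocyte mRNAs, which includes csf1ra, spi1 and marco.

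Among genes that differed between the stages, smim19 had 16.3, 12.3 and 11.9 CPM in wild-type oocytes and 0.0880, 0 and 0 CPM in ski7-/- oocytes. Unactivated eggs had 45.1, 37.4 and 46.2 CPM in wild type and 50.8, 47.2 and 38.0 CPM in ski7-/- on the same scale, so the groups overlapped in eggs. The gene eif2ak3, which encodes a kinase that slows translation under stress of the endoplasmic reticulum, was uneven in wild type, at 2.35, 1.71 and 55.0 CPM in eggs and 53.5, 33.5 and 0.971 CPM in oocytes. In ski7-/- it had 190.3, 158.2 and 160.9 CPM in eggs and 0.880, 0.840 and 0.707 CPM in oocytes. These genes were chosen after their values were seen.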
